A study of Mus musculus with 23 samples.

Results

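Tcf4, Spib, Runx2, Bcl11a, Zeb2, Cbfa2t3 and Id3 are transcription factors and cofactors tied by earlier knowledge to the fate of plasmacytoid dendritic cells (pDCs), and their mRNA was followed across sorted spleen dendritic cells (DCs). They were found by symbol, and make 7 of the 47729 genes in the count table and 7 of the 19597 that passed edgeR's filter on low counts. RNA was sequenced from the spleens of wild type BALB/c mice, in 23 libraries of cells sorted by surface CD8 and CD172 (also named SIRPa) into 4 subsets. DC1a cells were CD8 high and CD172 negative, DC1b cells CD8 intermediate and CD172 positive, DC2 cells CD8 low and CD172 high, and DC3 cells CD8 negative and CD172 low. Untreated mice gave 2 pools with a library of each subset, all in batch 1. Mice given TLI, a treatment that the labels do not expand, gave 4 pools, of which pools 1 and 2 were in batch 1 and pools 3 and 4 in batch 2, and no DC2 library of pool 2 was analysed here, so TLI DC2 has n = 3. The labels give no age or sex, each pool mixes mice, and all untreated libraries belong to batch 1.

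pDCs are the DCs that make large amounts of type I interferon when Toll-like receptors sense viral nucleic acid. Their identity depends on the E protein E2-2, the product of Tcf4, which binds E-boxes in DNA and keeps the pDC programme on. Spi-B (Spib), an ETS factor, acts beside it, Bcl11a is a zinc-finger factor upstream of it, Runx2 is needed for mature pDCs to leave the bone marrow, and Zeb2 and the corepressor Mtg16 (Cbfa2t3) hold down Id2. Id2 and Id3 are inhibitors that bind E proteins and keep them from DNA, and Id2 is a hallmark of conventional DCs. pDCs usually carry B220, and the gates of the study started from cells negative for B220 and other lineage markers.

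Promoter sequences of the members are shown because E proteins, ETS factors and RUNX factors are themselves among the members. RefSeq windows on GRCm38.p6 reached from 250 bases before to 50 bases after a start site. The table held 10 windows for 6 members and none for Tcf4. Only the 3 windows whose 250 bases before the start held no annotated exon base are printed, 5′ to 3′ on the gene's strand, with capitals for a match to CAGGTG (an E-box) or GAGGAA (an ETS type site) on either strand. The Spib stretch is chr7:44532072-44532321 (minus strand), the Zeb2 stretch chr2:45117443-45117692 (minus strand) and the Cbfa2t3 stretch chr8:122678176-122678425 (minus strand).
Spib: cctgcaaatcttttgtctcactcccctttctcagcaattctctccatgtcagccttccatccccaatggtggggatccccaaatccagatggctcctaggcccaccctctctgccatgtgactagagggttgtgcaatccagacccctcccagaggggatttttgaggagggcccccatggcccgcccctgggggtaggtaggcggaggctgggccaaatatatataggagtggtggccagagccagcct
Zeb2: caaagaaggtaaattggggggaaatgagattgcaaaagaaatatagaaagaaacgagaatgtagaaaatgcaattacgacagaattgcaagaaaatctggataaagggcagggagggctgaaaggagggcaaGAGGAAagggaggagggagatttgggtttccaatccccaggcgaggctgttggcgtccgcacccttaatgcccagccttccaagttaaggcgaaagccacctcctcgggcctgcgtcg
Cbfa2t3: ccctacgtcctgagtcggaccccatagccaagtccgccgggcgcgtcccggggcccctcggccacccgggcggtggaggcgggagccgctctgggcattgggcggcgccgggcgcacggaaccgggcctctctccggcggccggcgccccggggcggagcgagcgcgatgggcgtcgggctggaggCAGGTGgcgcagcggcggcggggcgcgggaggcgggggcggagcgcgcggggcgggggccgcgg

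Counted over whole windows of 300 bases, some of them alternative starts of 1 gene that overlap, CAGGTG was found in 1 of the 10 windows (of Cbfa2t3), against 20.2% of all 32851 windows. GAGGAA was found in 6 of the 10, which were all 4 windows of Zeb2, 1 of Cbfa2t3 and 1 of Id3, against 28.3% of all windows. TGTGGT, a RUNX type site, was found in 1 of the 10, that of Runx2 itself, where it occurred 3 times, against 16.8% of all windows. The Spib and Bcl11a windows held none of these letters. A match is a run of letters, not a bound site.

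Total counts per library lay between 19256447 and 36997890, and 3 counts, the floor used here, correspond to 0.0811 to 0.156 CPM (counts scaled to the library total, compared here between libraries and never between genes). Cd8a and Sirpa, which encode CD8 alpha and CD172, were compared with the gates. Itgax, which encodes CD11c, was present in all 23 libraries at 77.4 to 532 CPM. Cd8a was at 315 to 850 CPM in the 6 DC1a libraries and at 0.276 to 1.06 CPM in the 5 DC2 libraries. In DC1b, Cd8a was at 155 and 390 CPM in the untreated pools and at 302, 342, 79.0 and 0.327 CPM in TLI pools 1 to 4, so the library labelled TLI DC1b pool 4 went against the CD8 part of its gate. Cd8a in DC3 was at 0.228 to 6.46 CPM in 5 of 6 libraries and at 41.6 CPM in untreated pool 2. Sirpa in DC2 was at 252 and 196 CPM in the untreated pools and at 36.7, 9.22 and 309 CPM in TLI pools 1, 3 and 4, so that TLI DC2 pool 3 was low for a CD172 high gate. Sirpa in DC1b was at 13.7 and 91.0 CPM in the untreated DC1b pools and at 146, 141, 5.10 and 6.55 CPM in the TLI DC1b pools. TLI DC1b pools 3 and 4 were thus low for a CD172 positive gate, beside 0.521 to 6.24 CPM in TLI DC3. Summed erythroid genes (5 genes, mostly hemoglobins) reached 34697 to 96803 CPM in the 4 libraries of TLI pool 1, 14030 to 17400 CPM in the 3 libraries of TLI pool 2 and 107 to 4950 CPM in the 8 of pools 3 and 4, against 36.6 to 1585 CPM in untreated libraries. Calls that changed without TLI DC1b pool 4, without TLI DC2 pool 3 or without TLI pool 1 are given beside the results they touch. Without pools 1 and 2 together, TLI and batch could not be told apart, so that pair was not left out.

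Tcf4 stood out in untreated DC1b cells. Tcf4 (ENSMUSG00000053477, GRCm38 chromosome 18, 69343356 to 69689079, plus strand) was at 1026 and 523 CPM in the untreated DC1b pools. It was at 15.6 and 19.7 CPM in untreated DC1a, 39.5 and 41.5 CPM in untreated DC2, and 88.2 and 61.9 CPM in untreated DC3. Both untreated DC1b libraries lay above the 21 other libraries, and the mean of 774 CPM ± 355 (SD, n = 2) was 10.3 times that of the next group, untreated DC3. For Tcf4 and the members below, the share of all genes with such a separation of libraries was not counted. In TLI mice, Tcf4 was at 64.4, 46.3, 31.1 and 23.4 CPM in DC1b pools 1 to 4. It was at 14.98, 9.60, 7.95 and 15.6 CPM in TLI DC1a, at 21.1, 42.0 and 93.3 CPM in TLI DC2 pools 1, 3 and 4, and at 33.9, 36.0, 53.9 and 25.1 CPM in TLI DC3. The means of untreated DC3, TLI DC2, TLI DC1b, untreated DC2 and TLI DC3, from 75.0 down to 37.2 CPM, had overlapping neighbours, and both DC1a groups lay below them.

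Runx2 was also highest in untreated DC1b. Runx2 (ENSMUSG00000039153, chromosome 17, 44495987 to 44814797, minus strand) was at 528 and 364 CPM in untreated DC1b, 5.72 and 13.9 CPM in untreated DC1a, 41.3 and 31.2 CPM in untreated DC2, and 38.5 and 33.9 CPM in untreated DC3. The untreated DC1b mean of 446 CPM ± 116 (SD, n = 2) was 6.79 times the next mean, that of TLI DC2. In TLI mice it was at 15.9, 14.8, 77.6 and 51.6 CPM in DC1b, 6.51, 4.49, 12.7 and 11.6 CPM in DC1a, 40.2, 116 and 40.9 CPM in DC2, and 23.3, 7.16, 75.2 and 37.8 CPM in DC3. The batch 2 pools lay above the batch 1 pools in each of the 4 TLI subsets. An antisense gene, Runx2os1, shares 5.87% of the exon bases of Runx2 and reads of the pair cannot be told apart without strand, as holds for the other antisense pairs named here.

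Spib was low outside untreated DC1b. Spib (ENSMUSG00000008193, chromosome 7, 44525993 to 44532071, minus strand), whose promoter stretch is printed above, was at 158 and 323 CPM in untreated DC1b. It was at 2.86 and 2.89 CPM in untreated DC1a, 0.366 and 0.519 CPM in untreated DC2, and 15.8 and 0.313 CPM in untreated DC3. In TLI DC1b it was at 15.9, 0.477, 0 and 0.149 CPM, so 1 of the 4 libraries was above 1 CPM. It was at 0 to 2.36 CPM in the 4 TLI DC1a libraries, 9.58 to 14.4 CPM in the 3 TLI DC2 libraries and 1.22 to 7.13 CPM in the 4 TLI DC3 libraries. The untreated DC1b libraries did not overlap any other group, and the mean of 240 CPM ± 117 (SD, n = 2) was 20.1 times that of TLI DC2.

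Bcl11a was expressed in every library. Bcl11a (ENSMUSG00000000861, chromosome 11, 24078056 to 24174123, plus strand) was at 179 and 215 CPM in untreated DC1b, above the 155 CPM of the highest other library. Its untreated means were 42.6 CPM ± 4.01 in DC1a, 103 CPM ± 58.6 in DC2 and 61.1 CPM ± 8.08 in DC3 (SD, n = 2 each). In TLI DC1b it was at 35.0, 62.8, 10.4 and 30.9 CPM, all below the untreated DC1b pools. TLI DC2 had the highest TLI mean, 126 CPM ± 42.8 (SD, n = 3). An antisense gene, 4930538E20Rik, shares 2.4% of its exon bases.

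**Figure D1:**
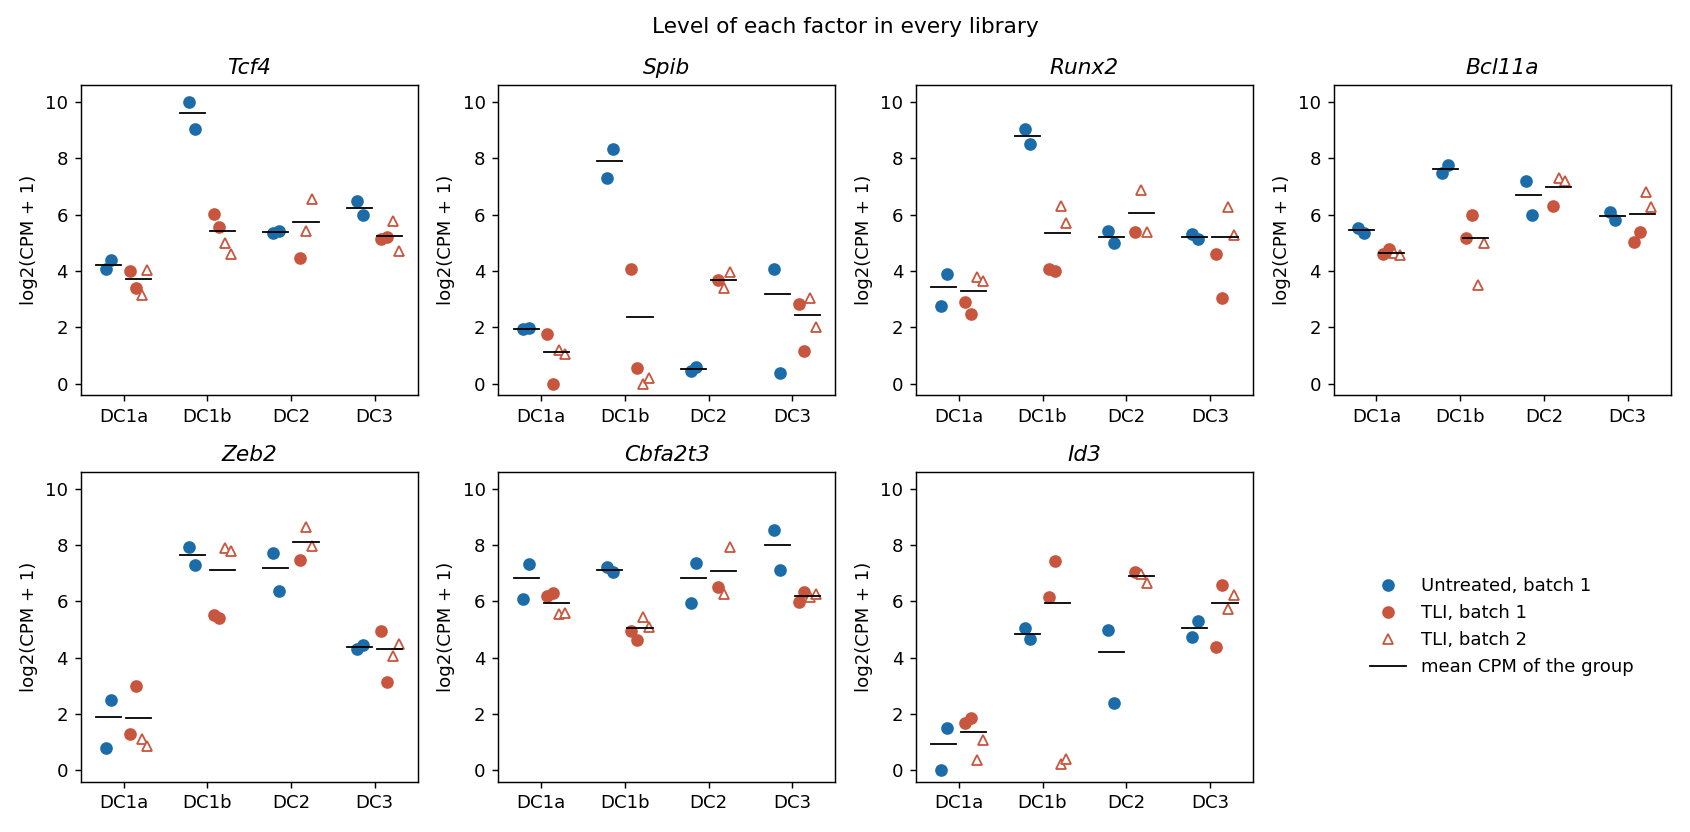
Level of each of the 7 factors in the 23 libraries, as log2(CPM + 1) against subset. Blue points are untreated and red points TLI libraries, circles batch 1 and open triangles batch 2, and the bar is the log2 of the mean CPM + 1 of the group. The 2 untreated DC1b libraries lie above all others for Tcf4, Spib, Runx2 and Bcl11a, and Id3 splits by batch in TLI DC1b. The share of all genes for which these 2 libraries lie highest was not counted.

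Zeb2 was higher in DC1b and DC2 than in DC1a and DC3, not in DC1b alone. Zeb2 (ENSMUSG00000026872, chromosome 2, 44983632 to 45117395, minus strand), a zinc-finger repressor, was at 242 and 156 CPM in untreated DC1b and at 210 and 81.6 CPM in untreated DC2. It was at 0.732 and 4.71 CPM in untreated DC1a and at 18.6 and 21.1 CPM in untreated DC3. In TLI mice it was at 178, 396 and 247 CPM in DC2, 29.6, 7.87, 15.6 and 21.4 CPM in DC3 and 1.48, 6.88, 1.19 and 0.815 CPM in DC1a. In TLI DC1b it was at 45.2 and 41.2 CPM in pools 1 and 2 and at 239 and 220 CPM in pools 3 and 4. All DC1b and DC2 libraries lay above all DC3 libraries, and all DC1a libraries lay below them. The antisense gene Zeb2os shares 3.27% of its exon bases.

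Cbfa2t3 (ENSMUSG00000006362, chromosome 8, 122625141 to 122699109, minus strand), which encodes the corepressor Mtg16, did not single out DC1b in untreated mice. It was at 146 and 129 CPM in untreated DC1b, 67.1 and 161 CPM in DC1a, 60.4 and 163 CPM in DC2, and 369 and 136 CPM in DC3, and these ranges overlapped. In TLI mice it was lowest in DC1b, at 30.0, 23.5, 42.9 and 33.0 CPM, below every library of every other group. The other TLI means were 60.6 CPM ± 16.3 in DC1a, 72.0 CPM ± 7.86 in DC3 (SD, n = 4 each) and 136 CPM ± 91.6 in DC2 (SD, n = 3). The antisense gene Gm10612 shares 3.52% of its exon bases.

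Id3, the inhibitor among the members, had another pattern. Id3 (ENSMUSG00000007872, chromosome 4, 136143497 to 136145755, plus strand) was at 0 and 1.85 CPM in untreated DC1a and at 0.297 to 2.61 CPM in TLI DC1a. It was at 31.8 and 24.1 CPM in untreated DC1b, 30.6 and 4.31 CPM in untreated DC2, and 25.6 and 38.3 CPM in untreated DC3. In TLI DC2 it was at 131, 123 and 98.6 CPM, and in TLI DC3 at 19.6, 94.4, 51.4 and 73.6 CPM. TLI DC1b split into 69.8 and 174 CPM in pools 1 and 2 and 0.166 and 0.327 CPM in pools 3 and 4. Apart from those pools, every library outside DC1a exceeded every DC1a library.

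The subsets were first compared within untreated mice, all fits with a shared term for batch, using edgeR's quasi-likelihood test over all 23 libraries and Benjamini-Hochberg adjusted p under 0.05 as the threshold. In DC1b against DC1a, 3 of the 7 members were higher and none lower, where 0.837% of all genes tested were called. Runx2 was higher by a log2 fold change of 5.21 (SE 0.72, adjusted p = 0.00126) and Tcf4 by 5.15 (SE 0.71, adjusted p = 0.00126). Zeb2 was higher by 5.89 (SE 1.29, adjusted p = 0.0389). Spib had a log2 fold change of 6.10 with an SE of 2.51 (adjusted p = 0.396) and Bcl11a one of 1.92 with an SE of 0.66 (adjusted p = 0.266), so neither passed, while DESeq2 called both, with an adjusted p of 0.0219 for Spib and 0.0385 for Bcl11a. With the pool as a replicate block, the adjusted p was 0.00151 for Runx2, 0.00674 for Tcf4 and 0.0899 for Zeb2. Without untreated DC1a pool 1 the adjusted p was 0.0608 for Runx2 and 0.0626 for Tcf4, and no other single library ended either call. The Zeb2 call was lost without any 1 of 9 libraries, and without TLI pool 1 (adjusted p = 0.0659).

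DC1b also stood above the other untreated subsets. In DC2 against DC1b, 2 members were lower, where 0.398% of genes were called. These were Tcf4, which fell by 4.16 on the log2 scale (SE 0.67, adjusted p = 0.00782), and Runx2, which fell by 3.53 (SE 0.66, adjusted p = 0.0212). In DC3 against DC1b the same 2 members were lower, where 0.393% of genes were called. Runx2 fell by 3.59 (SE 0.66, adjusted p = 0.021) and Tcf4 fell by 3.34 (SE 0.65, adjusted p = 0.0304), the latter with an adjusted p of 0.0712 in the fit with the pool as a block. Spib, with a log2 fold change of -9.01 in DC2 against DC1b and an SE of 2.86, did not pass (adjusted p = 0.274). DESeq2 called Spib there (adjusted p = 0.000139) and Zeb2 in DC3 against DC1b (adjusted p = 0.0297). These edgeR calls rested on pairs of libraries. Each was lost without either DC2 or DC3 library compared or without DC1b pool 1, and all but that of Tcf4 against DC2 also without DC1b pool 2, with adjusted p values up to 0.105 and 0.415 for Tcf4 and 0.249 and 0.318 for Runx2 (DC2 and DC3).

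Away from DC1b, untreated subsets differed in a single member. In DC2 against DC1a, Zeb2 was higher by 5.55 (SE 1.27, adjusted p = 0.0304), 1 of 7 members where 1.91% of genes were called, with an adjusted p of 0.0707 in the fit with the pool as a block, and it was lost without any of the 4 libraries compared (adjusted p up to 0.375). In DC3 against DC1a edgeR called 0 members, 4 had an unadjusted p under 0.05 and DESeq2 called 0, where edgeR called 0.184% of genes. In DC3 against DC2 edgeR and DESeq2 called 0 members, 1 had an unadjusted p under 0.05, and the share of genes called was 0.837%. At that unadjusted p, 1464 of all 19597 genes passed in DC3 against DC1a and 2177 in DC3 against DC2.

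**Figure D2:**
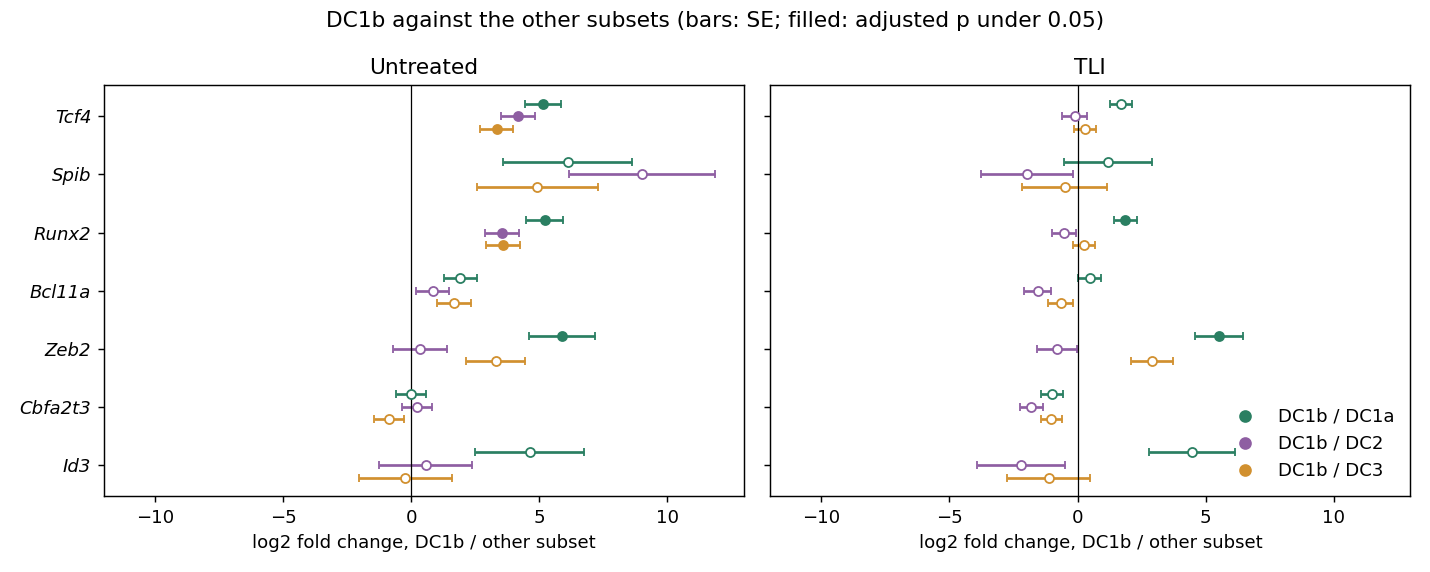
Log2 fold change of DC1b over each other subset for the 7 factors, in untreated mice (left) and TLI mice (right). Points are fitted values and bars their SE, and filled points have an adjusted p under 0.05. Tcf4 and Runx2 pass against all 3 subsets in untreated mice, whereas in TLI mice only Runx2 and Zeb2 pass, and only against DC1a.

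Within TLI mice the members followed a different order. In DC1b against DC1a, Zeb2 was higher by 5.51 (SE 0.94, adjusted p = 0.00363) and Runx2 by 1.87 (SE 0.44, adjusted p = 0.0425), 2 of 7 members where 1.42% of genes were called. Tcf4 had a log2 fold change of 1.69 (SE 0.43, adjusted p = 0.0677), and DESeq2 called it (adjusted p = 0.00354) as well as Id3 (adjusted p = 0.00439). Without TLI DC1b pool 4, whose Cd8a was near the floor, the log2 fold change was 5.25 for Zeb2 (adjusted p = 0.00774) and 1.89 for Runx2 (adjusted p = 0.0752), and Tcf4 passed narrowly, at 1.92 (adjusted p = 0.04997). Tcf4 also passed without TLI DC2 pool 1 or pool 4 and among genes with at least 10 counts in every library (adjusted p = 0.028), and its adjusted p lay between 0.00354 and 0.206 over all alternatives. Without TLI pool 1 it was 5.87 for Zeb2 (adjusted p = 0.0298), and Runx2 had an adjusted p of 0.0559. The Runx2 call was lost without any 1 of 14 libraries, and the Zeb2 call held without each of the 23.

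In DC2 against DC1a, 5 of the 7 members were higher in TLI mice and none lower, where 3.4% of genes were called. Zeb2 was higher by 6.31 (SE 0.98, adjusted p = 0.00106) and Runx2 by 2.39 (SE 0.47, adjusted p = 0.00687). Id3 was higher by 6.68 (SE 1.70, adjusted p = 0.0376), Bcl11a by 2.02 (SE 0.50, adjusted p = 0.0335) and Tcf4 by 1.79 (SE 0.47, adjusted p = 0.0439). With the pool as a block Zeb2 and Runx2 passed, and the adjusted p was 0.0718 for Id3, 0.0548 for Bcl11a and 0.0953 for Tcf4. The call of Tcf4 was lost without any 1 of 17 libraries, that of Id3 without any 1 of 10 and that of Bcl11a without any 1 of 9, while those of Zeb2 and Runx2 held without each of the 23. TLI DC2 pool 3, whose Sirpa was low for its gate, was among the libraries that ended the calls of Tcf4, Id3 and Bcl11a. Without TLI pool 1, Zeb2 and Tcf4 passed and the 3 others did not. With a batch term for each subset, the level of a TLI group is that of its batch 1 libraries, which for DC2 is pool 1 alone. The log2 fold change was then 5.18 for Zeb2, 1.37 for Bcl11a and 0.50 for Tcf4. With 1 DC2 library, that fit cannot show whether these calls hold over all TLI pools.

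The remaining TLI pairs showed few calls. In DC3 against DC2, Zeb2 fell by 3.70 (SE 0.86, adjusted p = 0.043), 1 of 7 members where 1.37% of genes were called, with an adjusted p of 0.105 in the fit with the pool as a block and of 0.0748 without TLI pool 1, and it was lost without any 1 of 14 libraries. TLI DC2 pool 3 was among those 14. In DC3 against DC1a edgeR called 0 members, 5 had an unadjusted p under 0.05 and DESeq2 called 4, where edgeR called 0.75% of genes. In DC2 against DC1b edgeR called 0 members, 2 had an unadjusted p under 0.05 and DESeq2 called 1, Cbfa2t3, where edgeR called 0.214% of genes. In DC3 against DC1b edgeR called 0 members, 2 had an unadjusted p under 0.05 and DESeq2 called 1, Zeb2, where edgeR called 1.11% of genes. DC3 against DC1a, DC2 against DC1b and DC3 against DC1b had 2076, 2042 and 2330 of all 19597 genes at that unadjusted p. For Tcf4, the log2 fold change of DC2 over DC1b was 0.10 (SE 0.48) and that of DC3 over DC1b was -0.30 (SE 0.42).

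TLI was then compared with untreated mice inside each subset. In DC1b, 2 of the 7 members were lower in TLI mice and none higher, where 0.413% of genes were called. Tcf4 fell by 3.90 on the log2 scale (SE 0.52, adjusted p = 0.00294) and Runx2 fell by 4.26 (SE 0.55, adjusted p = 0.00294). The mean CPM of Tcf4 was 18.7 times higher in untreated than in TLI DC1b, and that of Runx2 11.2 times higher, with no overlap between the groups. How many of all genes lacked overlap there was not counted. In a sorted population, fewer cells of a type and less RNA per cell cannot be told apart. Spib had a log2 fold change of -5.50 with an SE of 1.82 (adjusted p = 0.226), Bcl11a one of -2.26 with an SE of 0.54 (adjusted p = 0.0828) and Cbfa2t3 one of -1.84 with an SE of 0.52 (adjusted p = 0.154), and DESeq2 called all 3. Zeb2 and Id3 had log2 fold changes of -0.45 (SE 1.03) and 1.42 (SE 1.67).

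Both calls in DC1b depended on 1 of the 2 untreated libraries. Without untreated DC1b pool 1, Tcf4 had a log2 fold change of -3.38 (adjusted p = 0.0711) and Runx2 one of -4.01 (adjusted p = 0.0646), and no other single library ended either call. Without TLI DC1b pool 4, Tcf4 fell by 3.75 and Runx2 fell by 4.24 (adjusted p = 0.00947 each). Without TLI pool 1, Tcf4 fell by 4.23 (adjusted p = 0.00481), Runx2 fell by 4.71 (adjusted p = 0.00586) and Spib also passed (adjusted p = 0.0375). Within batch 1 alone, where TLI DC1b has 2 libraries, the log2 fold change was -3.45 for Tcf4 (adjusted p = 0.0517) and -4.51 for Runx2 (adjusted p = 0.0601). Without a batch term Runx2 had a log2 fold change of -3.15 (adjusted p = 0.163).

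**Figure D3:**
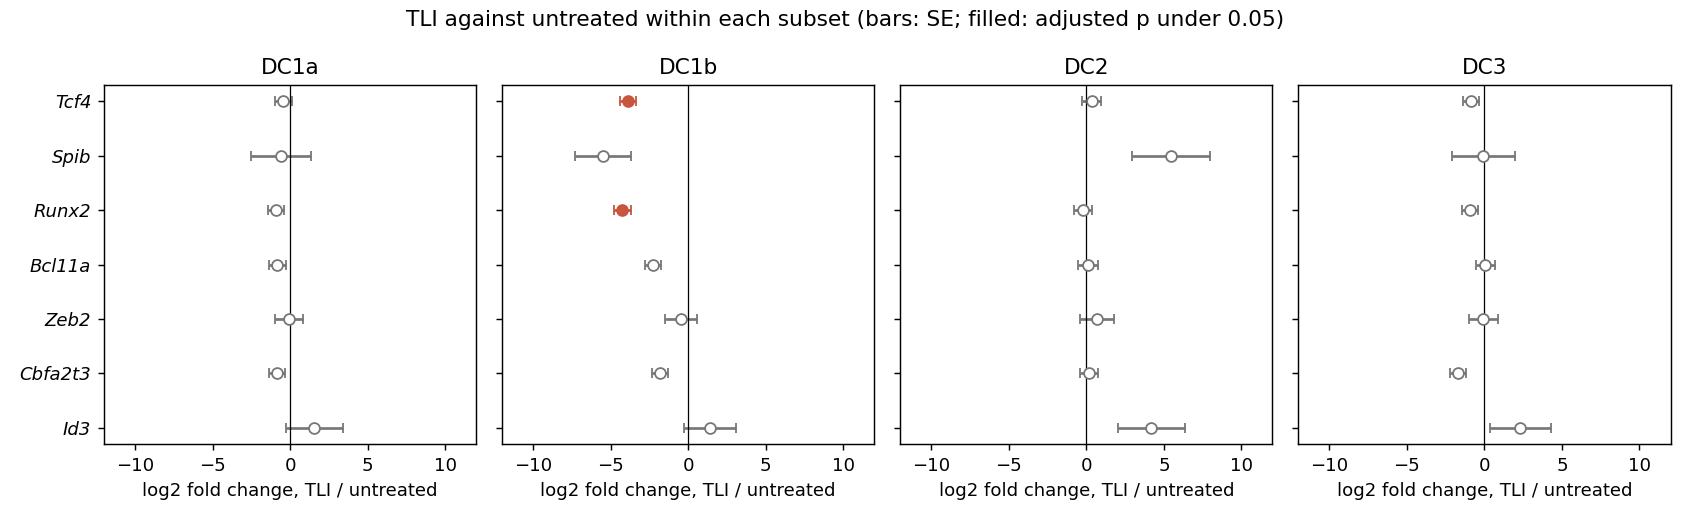
Log2 fold change of TLI over untreated for the 7 factors in each subset, with SE bars and filled points at an adjusted p under 0.05. Tcf4 and Runx2 in DC1b, at -3.90 and -4.26, are the only filled points.

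The other subsets gave no call with edgeR. In DC1a, 0 members were called, 0 had an unadjusted p under 0.05 and DESeq2 called 0, where edgeR called 0.0102% of genes. In DC2, 0 members were called, 1 had an unadjusted p under 0.05 (Spib) and DESeq2 called 0, where edgeR called 0.0612% of genes. Spib was at 9.58 to 14.4 CPM in TLI DC2 and 0.366 and 0.519 CPM in untreated DC2. In DC3, 0 members were called, 1 had an unadjusted p under 0.05 (Cbfa2t3, log2 fold change -1.70, SE 0.51) and DESeq2 called 0, where edgeR called 0.0255% of genes. Over all 19597 genes, 1912, 1765 and 2044 had an unadjusted p under 0.05 in DC1a, DC2 and DC3.

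Whether the TLI difference itself differed between subsets was tested as an interaction in the same fit. Tcf4 passed in DC2 minus DC1b, with a difference of 4.27 in log2 fold change (SE 0.80, adjusted p = 0.0475), 1 of 7 members where 0.122% of genes were called, and Runx2 had a difference of 4.05 (SE 0.79, adjusted p = 0.058). The adjusted p of Tcf4 was 0.143 with the pool as a block and 0.0896 without TLI DC1b pool 4, and the call was lost without any 1 of 21 libraries, TLI DC2 pool 3 among them. In the 5 other pairs edgeR called 0 members. For DC1b minus DC1a, 2 members had an unadjusted p under 0.05 (Tcf4 and Runx2), DESeq2 called both, and edgeR called 0.0357% of genes. For DC3 minus DC1b, 3 had an unadjusted p under 0.05, DESeq2 called 2, and edgeR called 0.0204% of genes. For DC2 minus DC1a, DC3 minus DC1a and DC3 minus DC2, the unadjusted counts were 1, 0 and 1, DESeq2 called 0 in each, and edgeR called 0.0255%, 0% and 0.0357% of genes. The unadjusted counts over all 19597 genes were 1420, 815 and 1481 there. They were 1468 for DC1b minus DC1a and 1663 for DC3 minus DC1b. These pairs share control libraries.

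The TLI DC1b libraries differed by batch in ways that touch these members. In a fit with a batch term for each subset, chosen after the values were seen, Id3 was the member called between batch 2 and batch 1 of TLI DC1b. It had a log2 fold change of -8.86 (SE 1.77, adjusted p = 0.0285), 1 of 7 members where 1.4% of genes were called, and 5 members had an unadjusted p under 0.05. So did 3155 of all 19597 genes. Zeb2 had a log2 fold change of 2.44 (SE 0.87, adjusted p = 0.183), Runx2 one of 2.096 (SE 0.64, adjusted p = 0.127) and Tcf4 one of -0.9996 (SE 0.49, adjusted p = 0.332). In that fit the other contrasts use the batch 1 level of each TLI group, and batch 2 libraries inform only the spread. Zeb2 in TLI DC1b against DC1a had a log2 fold change of 3.35 (adjusted p = 0.225), and the Runx2 call of that pair was also lost. In DC1b of TLI against untreated mice, Tcf4 fell by 3.48 and Runx2 fell by 4.55 (adjusted p = 0.0166 each). These values describe batch 1 and are not an adjustment over all TLI pools.

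Summed genes of some other cells were higher in TLI than in untreated DC1b, though few passed singly. By edgeR 2 of 8 monocyte and macrophage genes (Lyz2 and Cd14), 2 of 5 erythroid genes (Hbb-bs and Hbb-bt), 0 of 6 neutrophil genes and 0 of 11 B cell genes were called higher in TLI DC1b, with 6, 5, 6 and 1 at an unadjusted p under 0.05. Of all 19597 genes tested, 0.413% were called in either direction and 2425 had an unadjusted p under 0.05. The summed neutrophil genes (6 genes, such as S100a8 and Ngp) were at 20897, 1379, 1744 and 9199 CPM in TLI DC1b pools 1 to 4, against 0.839 and 19.7 CPM in untreated DC1b. All 6 were above the floor in at least 1 library of each group. The summed monocyte and macrophage genes (8 genes, led by Lyz2) were at 7466 to 25499 CPM in TLI DC1b against 3548 and 5685 CPM in untreated DC1b. Summed erythroid genes were at 1414 to 45688 CPM against 53.8 and 70.1 CPM. Summed B cell genes (11 genes, mostly Ighm) were at 1501 to 5276 CPM against 1246 and 1557 CPM, which overlap, with Pax5, which defines B cells, at 0 to 0.249 CPM in all 6 DC1b libraries. Their part in the lower Tcf4 and Runx2 of TLI DC1b was not tested.

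The pDC programme was highest in the same 2 libraries as Tcf4, Runx2 and Spib. Its list of 24 genes was chosen with earlier results of these data known. Its sum was 7536 and 11035 CPM in untreated DC1b, against 324 to 1591 CPM in the 21 other libraries. All 24 genes were above the floor in at least 1 library of untreated DC1a, of untreated DC1b and of TLI DC1b. In each other group, 19 to 23 of them were above it in at least 1 library. Siglech, a surface lectin of pDCs, was at 1160 and 1858 CPM in untreated DC1b and at 30.0, 31.2, 9.50 and 0.268 CPM in TLI DC1b. Cox6a2, a subunit of cytochrome c oxidase, was at 1703 and 2520 CPM and then at 14.7, 5.87, 12.4 and 0 CPM. Klk1, a kallikrein of a large family of near copies whose reads the counting could split, was at 1219 and 2532 CPM and then at 1.95, 10.3, 0 and 12.6 CPM. Pld4, a nuclease, was at 798 and 814 CPM in untreated DC1b and at 189 to 426 CPM in TLI DC1b. Pld4 was not particular to DC1b, though its mean was highest in untreated DC1b. It was at 587 to 658 CPM in untreated DC2. Its highest library was at 1026 CPM in TLI DC1a and 1129 CPM in TLI DC3, both above the untreated DC1b libraries. Siglech and Cox6a2 were low in every other group, at up to 44.4 and 40.4 CPM.

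**Figure D4:**
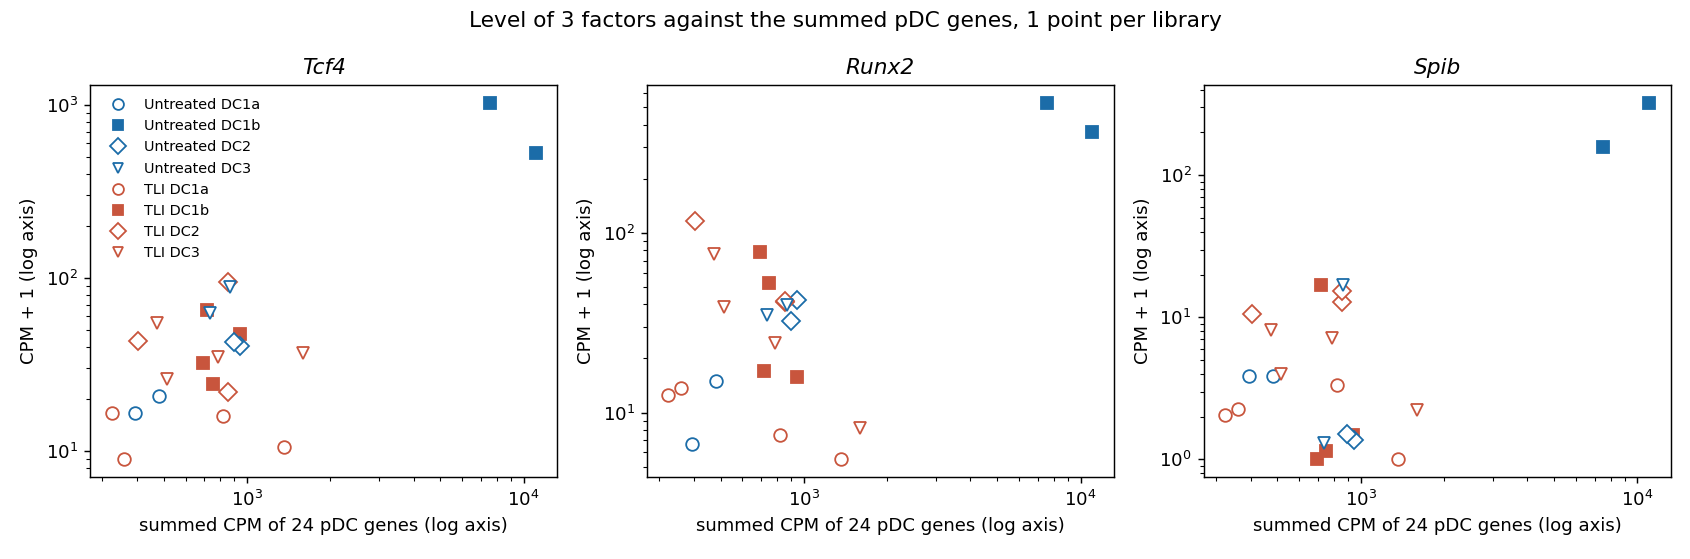
CPM + 1 of Tcf4, Runx2 and Spib against the summed CPM of the 24 genes of the pDC programme, on log axes, 1 point per library, with filled squares for DC1b. The 2 untreated DC1b libraries stand apart at 7536 and 11035 summed CPM, and the 4 TLI DC1b libraries lie among the other subsets.

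Few genes of the pDC programme passed the test singly. In untreated DC1b against DC1a edgeR called 0 of 24, with 15 at an unadjusted p under 0.05 and a median log2 fold change of 4.45. Over all 19597 genes tested, 0.837% were called, 2104 had an unadjusted p under 0.05 and the median was 0.07. In TLI against untreated DC1b it called 0 of 24, with 9 at an unadjusted p under 0.05 and a median of -2.97, where 0.413% of all genes were called, 2425 had an unadjusted p under 0.05 and the median was 0.09. Siglech had a log2 fold change of -5.78 there (SE 1.17, adjusted p = 0.0505). In untreated DC2 against DC1b, where 0.398% of all genes were called, 1 gene was lower, Nucb2, which fell by 4.50 (SE 0.86, adjusted p = 0.0255). In TLI DC1b against DC1a, where 1.42% of all genes were called, 3 genes were higher, Siglech, Lair1 and Tlr7. Siglech was listed at 0 in all 4 TLI DC1a libraries, Lair1 was higher by 4.52 (SE 1.09, adjusted p = 0.0483) and Tlr7, a sensor of single-stranded RNA, by 9.36 (SE 1.99, adjusted p = 0.0212). Siglech was also called higher in TLI DC3 against DC1a, and Tlr7 in TLI DC2 against DC1a, so neither call was particular to DC1b. Ccr9 was called lower in TLI DC2 than in TLI DC1a, DC1b and DC3. Ly6d and Cox6a2 had been named in earlier results of these data, so their place in the list is no independent evidence.

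Among 14 paralogs and partners of the members, 13 were tested. Id2, the inhibitor that Zeb2 and Mtg16 restrain, was at 728 and 777 CPM in untreated DC1b and 472 and 604 CPM in untreated DC2, against 2579 and 2986 CPM in untreated DC1a and 2308 and 2549 CPM in untreated DC3. It fell by 2.58 in untreated DC2 against DC1a (SE 0.56, adjusted p = 0.0242) and fell by 1.91 in TLI DC2 against DC1a (SE 0.44, adjusted p = 0.0211), where 1.91% and 3.4% of all genes were called, and in untreated DC1b against DC1a its log2 fold change was -2.18 (SE 0.56, adjusted p = 0.0856). Spic, an ETS factor of red pulp macrophages, was lower in TLI DC3 than in each other TLI subset, with log2 fold changes of -3.89, -5.38 and -6.21 against DC1a, DC1b and DC2, where 0.75%, 1.11% and 1.37% of all genes were called. Spi1 (PU.1) was at 103 and 197 CPM in untreated DC1b and 482 and 575 CPM in untreated DC2, and Cbfb, the partner of RUNX proteins, was at 15.7 and 21.7 CPM and 25.9 and 37.7 CPM there. No paralog or partner passed in TLI against untreated mice with edgeR in any subset, with 5 at an unadjusted p under 0.05 in DC1b, against 2425 of all 19597 genes.

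The genes most like each member were taken by Pearson r of log2 CPM over the 23 libraries, among 10160 genes with a mean of at least 5 CPM, as a description across libraries that share pools and depth. For Tcf4 they were Grm8 (r = 0.87), Klk1b5 (r = 0.85) and Olfr164 (r = 0.84), which were at means of 80.4 to 95.1 CPM in untreated DC1b and 0 to 0.18 CPM in TLI DC1b. Spearman's rho with Tcf4 was lower, at 0.56, 0.48 and 0.51. For Spib they were Gtf2i (r = 0.77), Fbxl13 (r = 0.74) and Tom1l2 (r = 0.74). For Runx2 they were Irf2bp2 (r = 0.92), Fndc3a (r = 0.85) and Smc6 (r = 0.84). Bcl11a was most like 4932438A13Rik (r = 0.84), Timm21 (r = 0.80) and Fam69a (r = 0.79), and Zeb2 most like Cybb, the heme subunit of the phagocyte oxidase (r = 0.95), Ssh2 (r = 0.93) and Gm9733 (r = 0.92). Cbfa2t3 was most like 2610005L07Rik (r = 0.79), Itpr3 (r = 0.72) and Mtbp (r = 0.71), and Id3 most like Kcne3 (r = 0.82), Klrb1a (r = 0.78) and Sra1 (r = 0.76). For the genes named beside members other than Tcf4, rho lay between 0.61 (Spib and Tom1l2) and 0.97 (Zeb2 and Cybb). Klk1b5, Olfr164 and Klrb1a belong to families of similar genes that the counting could confuse.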

How the data were processed

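RNA of sorted spleen DC subsets was sequenced in 23 libraries from 6 pools of mice. The authors trimmed reads with Trimmomatic, aligned them to GRCm38 with HISAT2 and deposited estimated counts per gene from StringTie, as unscaled whole numbers. The tests had been planned for plain read counts. Symbols and positions came from GENCODE M21, which names 47310 of the 47729 identifiers. Groups, pools and batches came from the sample labels. CPM were computed from library totals, and fold changes from TMM-scaled counts with edgeR 4.0.16 in R 4.3.3, in a fit of 8 groups and batch over 23 libraries with edgeR's filter on low counts. The biological coefficient of variation was 1.08. SE values are the log2 fold change divided by the square root of F. DESeq2 1.42.0 was an alternative, and its calls were counted for members only, so no DESeq2 share over all genes stands beside them. Scripts were tested on simulated data. Figures and motif searches used Python 3.11.

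The members and gene lists were chosen with earlier results of these data known. All members were named, with the 3 genes most like each, the 4 genes of highest mean CPM in each list, and genes of counts of 5 or fewer. A pool number marks the same mice. The main fit has no term for the pool, and pools were paired as a block within treatment only as an alternative. The correlation of residuals between libraries of a pool had a median of -0.04 over 33 pairs. Between subsets of different pools of the same treatment it was 0.04 over 75 pairs. Residuals in groups of 2 libraries mirror each other, so these values do not settle the pairing. Alternatives were other scaling, filters, batch terms, fewer libraries, each library left out, a batch term for each subset and no TLI pool 1, the last 2 chosen after seeing the data. Floors cover counting error only, since amplified reads are not independent molecules, and p-values measure the spread between pools.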

Additional observations from a re-analysis of the deposited data

Results flagged for a closer look

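Among 21 sets of 4 TLI libraries (7 members in DC1a, DC1b and DC3), 2 held a library far from the others. The cutoff gives about 1 in 20 for independent, normally distributed values. These CPM span 2 batches and the sets share libraries, so that rate need not hold here. Spib was at 15.9 CPM in TLI DC1b pool 1, against 0 to 0.477 CPM in pools 2 to 4. The same library had 20897 CPM of summed neutrophil genes and 45688 CPM of summed erythroid genes, whose part in the Spib level was not tested. Zeb2 was at 6.88 CPM in TLI DC1a pool 2, against 0.815 to 1.48 CPM in the 3 others.

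The TLI difference of Tcf4 differed between DC2 and DC1b by 4.27 on the log2 scale (edgeR, adjusted p = 0.0475 over all genes tested), but the adjusted p was 0.143 with the pool as a replicate block, and the call was lost without any 1 of 21 of the 23 libraries. Tcf4 was lower in all 4 TLI DC1b libraries than in both untreated DC1b libraries, whereas TLI DC2 libraries, at 21.1 to 93.3 CPM, lay on both sides of the untreated 39.5 and 41.5 CPM.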

How the results depend on the processing

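Counts below are pairs of member and comparison called by edgeR at an adjusted p under 0.05. Among untreated subsets 8 of 42 pairs were called, with 12 by DESeq2, 4 without a batch term, 5 in the 8 untreated libraries alone and 5 with the pool as a replicate block. Among TLI subsets 8 of 42 were called, with 16 by DESeq2, 4 without a batch term, 4 in the 15 TLI libraries alone, 4 with the replicate block and 3 without TLI pool 1. With a batch term for each subset, TLI levels are those of batch 1 and DC2 has 1 library there. Calls among TLI subsets that involve DC2 are therefore not counted in that fit. In DC1b against DC1a, with 2 batch 1 libraries in each TLI group, the calls of Zeb2 and Runx2 were both lost there. Between TLI and untreated mice 2 of 28 were called, with 5 by DESeq2, 1 without a batch term and 0 in batch 1 alone. In the interaction 1 of 42 was called, with 7 by DESeq2. The count was 3 where every library had at least 10 counts (5 members left to test). It was 0 with RLE size factors, without a batch term and with the replicate block. Interactions in batch 1 alone or with a batch term for each subset are not counted, since those with DC2 rest on 1 TLI library. Leaving out 1 library at a time gave 3 to 8 calls among untreated subsets, 3 to 8 among TLI subsets, 0 to 3 between TLI and untreated mice and 0 to 1 in the interaction. Of the 19 calls, 3 held without each single library (Zeb2 and Runx2 in TLI DC2 against DC1a, Zeb2 in TLI DC1b against DC1a). No paired analysis was possible because pools are nested in treatment for TLI against untreated mice, and the block changed no call beyond those given above. Of the 21 genes most like a member, 6 were the same by Spearman's rho. Over the 59 pairs with an unadjusted p under 0.05, 1870 alternative values gave 1669 on the same side of the threshold, 162 calls lost, 39 calls gained and 0 changes of sign. All 162 losses fell on the 19 calls, since a pair not called in the main fit had no call to lose. With 2 untreated pools a subset and a coefficient of variation near 1, differences within that spread could not be detected. The cause of the changes was not tested.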
